A study of Mus musculus with 6 samples.

Results

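This account concerns 43 genes whose protein products circulate in blood plasma and are made mainly by hepatocytes, the parenchymal cells of the liver, measured in RNA from liver macrophages. They were taken by gene symbol, and all 43 were found among the 14918 genes of the deposited table. The samples were macrophages from the livers of C57BL/6 mice on a high fat diet (HFD, 3 mice) or a normal diet (ND, 3 mice), 1 library each, named HFD1 to HFD3 and ND1 to ND3. Both diets were given for 18 weeks, starting at about 6 weeks of age. Genetic alterations, sex, diet composition and the way the cells were isolated are not given in the labels. Poly(A)-selected RNA was sequenced, and total gene counts lay between 17470439 and 23610956 per library.

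Hepatocytes secrete albumin, transport proteins, apolipoproteins, clotting factors and protease inhibitors at high rates, under transcription factors such as HNF4A, FOXA and CEBPA. Albumin and fibrinogen transcripts are widely used as markers of hepatocytes, and macrophages are not known as a source of them. A few of the 43 genes are also known from myeloid cells. These are C3 (complement component C3), Apoc1 and Apoc4 (small apolipoproteins of the Apoe gene cluster), Hp (haptoglobin, which binds free haemoglobin) and Trf (transferrin, the iron carrier). In bulk RNA, fewer cells of a type and less RNA per cell cannot be told apart.

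The libraries carried the RNA of macrophages. Summed over the 9 macrophage markers tested, including Cd68, Csf1r and C1qa, expression lay between 19693 and 22173 CPM (counts scaled to a common library size) under HFD and between 17267 and 27278 CPM under ND. The sums over 8 Kupffer cell markers, including Clec4f and Vsig4, spanned 15183 to 18729 and 14263 to 22554 CPM under HFD and ND.

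Plasma protein transcripts took a larger share of the counts in every HFD library than in any ND library. The 43 genes held 1.46%, 0.891% and 0.863% of all counts in HFD1 to HFD3, with 95% Wilson intervals of 1.45 to 1.47, 0.887 to 0.896 and 0.860 to 0.867. In ND1 to ND3 they held 0.182%, 0.523% and 0.487%, with intervals of 0.180 to 0.184, 0.519 to 0.526 and 0.484 to 0.490, which cover counting error only. The means were 1.07 ± 0.337% under HFD and 0.397 ± 0.187% under ND (SD, n = 3 each). The two-sided exact permutation test gave p = 0.10, the smallest that 3 libraries against 3 allow. Without HFD1 and ND1, a setting chosen after seeing the data, the difference of the mean shares was 0.372 percentage points, against 0.674 with all libraries.

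The share differed between mice of one diet as well. ND1 was the lowest library for 40 of the 43 genes, and HFD1 the highest for 40. Both held for 39 genes, against 9.30% of all 14361 genes tested. Between the highest and the lowest of the 6 libraries a median member differed 16.2-fold in CPM, and a median gene of those tested 1.52-fold. Within ND, 40 members varied more than 3-fold, and within HFD 1 did.

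Enzymes that stay inside hepatocytes also took a larger share in every HFD library. A list of 39 such genes, among them Pck1 (of gluconeogenesis) and Cps1 (of the urea cycle), held 0.365%, 0.212% and 0.196% of the counts in HFD1 to HFD3. They held 0.0365%, 0.118% and 0.136% in ND1 to ND3. There were 4.20 ± 0.198 plasma protein reads for each enzyme read under HFD and 4.32 ± 0.710 under ND (SD, n = 3 each; two-sided exact permutation p = 0.80). That ratio rests on C3 and Apoc1, which together gave about as many reads as all other members in ND1. Without them it was 3.66, 3.71 and 3.86 in HFD1 to HFD3 and 2.49, 3.59 and 2.89 in ND1 to ND3. There every HFD library stood above every ND library (exact permutation p = 0.10, the smallest possible). Khk and Ass1 were kept among the enzymes, though they took 36.1% of the enzyme reads in ND1 and between 8.29% and 15.1% elsewhere. The separation thus depends on which genes are counted. Asl and Kmo, also kept, were less reduced in ND1 than the enzymes summed, which had 375, 1190 and 1356 CPM in ND1 to ND3. Asl had 26.6, 35.1 and 36.7 CPM there, and Kmo 18.1, 13.6 and 29.3 CPM. No fit left Asl and Kmo out. Both lists were lowest in ND1 and highest in HFD1. Mitochondrially encoded transcripts also took 2.75 ± 0.512% of counts under HFD and 1.61 ± 0.335% under ND. With these genes left out of the totals, the share of the 43 genes still differed by 0.699 percentage points.

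**Figure D1:**
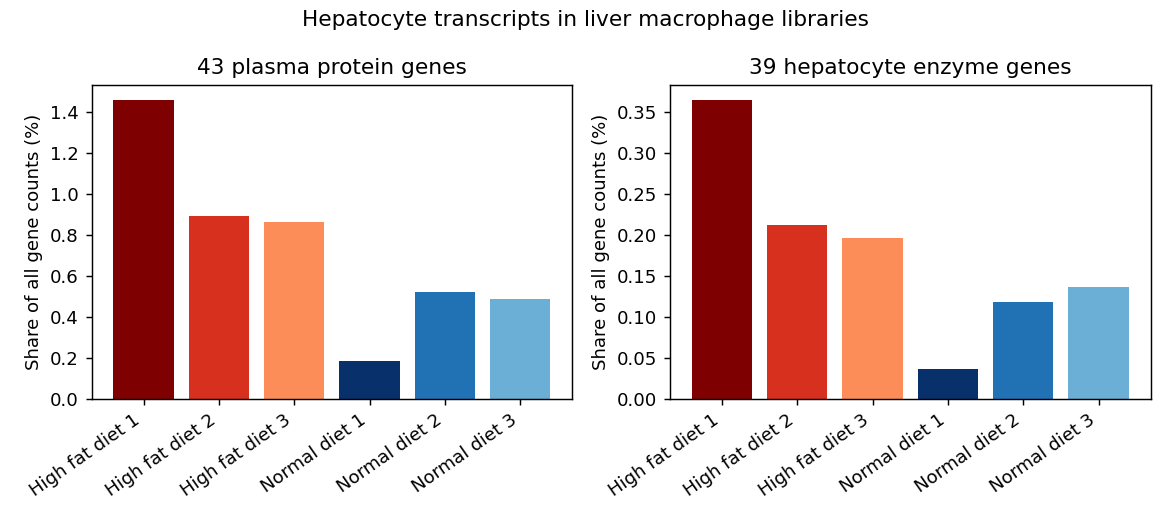
Share of all gene counts (%) taken by the 43 plasma protein genes (left) and by 39 intracellular hepatocyte enzyme genes (right), 1 bar per library. In both panels the 3 high fat diet bars stand above the 3 normal diet bars, with HFD1 tallest and ND1 shortest.

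In the edgeR quasi-likelihood test over all genes, Serpina6 and Apoa4 rose under HFD, and no member fell. These were 2 of 43 members, where 0.634% of all genes passed an adjusted p of 0.05 (0.446% higher, 0.188% lower). In CPM the 3 HFD libraries stood above all ND libraries for 37 members, which was true of 14.5% of all genes. None stood below, against 10.8% of all genes, and the other 6 overlapped. Log2 fold changes were positive for 42 members, against 50.0% of all genes, with a median of 1.65 (-0.00026 over all genes). Of the members, 28 were higher and 1 lower at an edgeR p below 0.05 before adjustment, where 10.2% and 8.40% of all genes were. DESeq2 on the same counts called 20 members, all higher, where it called 8.08% of genes, 4.96% higher. The authors' deposited table held 19 members with an adjusted p under 0.05, all higher, where 7.98% of its genes passed.

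The edgeR calls depended on the libraries used. No member passed without HFD1, HFD2 or HFD3 or without ND1 or ND3, where 4, 0, 2, 0 and 22 of all genes passed. Serpina6 and Apoa4 both passed without ND2, where 1385 of all genes passed. Neither passed without both libraries numbered 1, where 0 of all genes did.

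**Figure D2:**
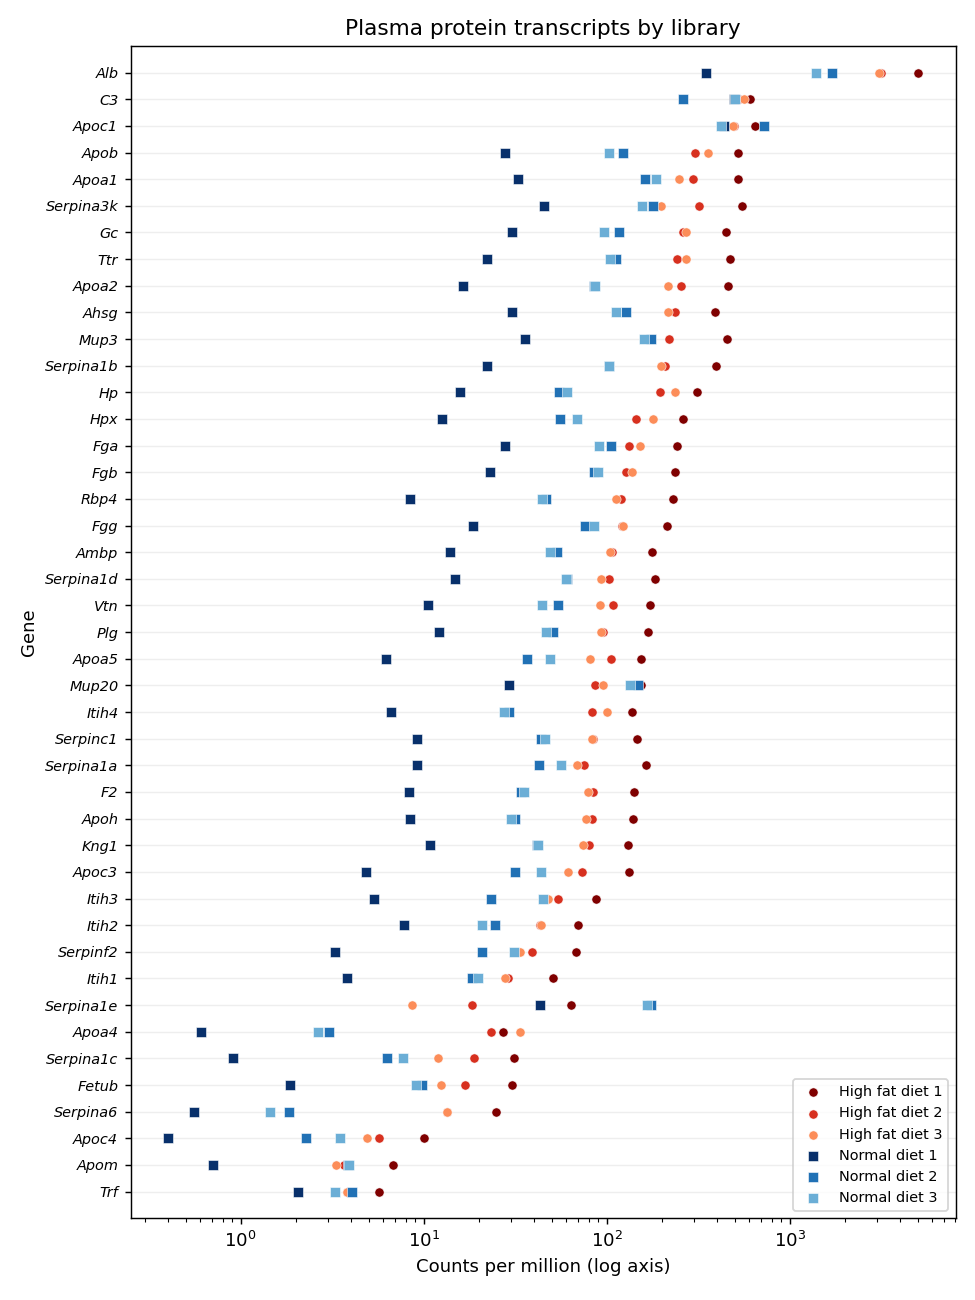
CPM of each plasma protein gene (log axis) in the 3 HFD (circles) and 3 ND libraries (squares), ordered by the mean under HFD. For 37 of 43 genes all circles lie to the right of all squares, and ND1 lies at the left end for 40.

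Among albumin and the carriers, 8 of 9 genes had separate diets and 1, Serpina6, passed in edgeR, while DESeq2 called 7. Alb, the main protein of plasma, had 5032, 3169 and 3085 CPM in HFD1 to HFD3 and 350, 1715 and 1387 CPM in ND1 to ND3. It was 3.27-fold higher under HFD without passing (log2 fold change 1.71 ± 0.57, SE; edgeR adjusted p = 0.193). Per length, Alb was the most abundant member under HFD, at 1855 ± 543 FPKM. Under ND Apoc1 came first, at 1071 ± 346 FPKM, with Alb at 561 ± 350 FPKM (SD, n = 3), a gap larger than the SD of either gene.

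Serpina6, the corticosteroid-binding globulin, had 24.9, 13.5 and 13.5 CPM in HFD1 to HFD3 and 0.555, 1.84 and 1.44 CPM in ND1 to ND3. It rose 13.5-fold (log2 fold change 3.75 ± 0.47, SE; edgeR adjusted p = 0.0420). The lowest HFD library stood above the highest ND library, and the ND values rest on 11, 35 and 29 reads. The other carriers stood higher under HFD without passing in edgeR, and DESeq2 called Alb, Ambp, Gc, Hp, Hpx and Rbp4 among them. Hp was at 248 ± 58.1 CPM under HFD and 43.8 ± 24.4 CPM under ND (SD, n = 3; adjusted p = 0.0844 in edgeR). Rbp4, the retinol carrier, was 4.65-fold higher, Hpx (hemopexin, which binds haem) 4.24-fold, Ttr (transthyretin, a thyroxine carrier) 4.10-fold, Gc (vitamin D binding protein) 4.02-fold and Ambp (precursor of alpha-1-microglobulin and bikunin) 3.34-fold. Trf, the exception, was low throughout, with 5.72, 3.79 and 3.83 CPM in HFD1 to HFD3 and 2.07, 4.05 and 3.28 CPM in ND1 to ND3, and the diets overlapped.

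Of the 10 apolipoproteins, which coat lipoprotein particles, Apoa4 rose in edgeR and 8 had separate diets, while DESeq2 called Apoa2, Apoa4, Apob and Apoh. Apoa4, also known as a product of the intestine, had 27.3, 23.2 and 33.5 CPM in HFD1 to HFD3 and 0.605, 3.05 and 2.64 CPM in ND1 to ND3. It rose 13.3-fold (log2 fold change 3.74 ± 0.51, SE; edgeR adjusted p = 0.0481), with 12, 58 and 53 reads in ND1 to ND3. Apoa4 lies beside 3 other members on chromosome 9. Among them Apoa1, the main protein of high density lipoprotein, was 2.80-fold higher, Apoc3 (an inhibitor of triglyceride clearance) 3.32-fold and Apoa5 (an activator of it) 3.68-fold, none passing in edgeR. Part of the Apoa4 promoter is shown because Apoa4 was called, with a match to the HNF4-type motif CAAAGNNCA in capitals. It is from RefSeq in GRCm38.p6, chr9:46240602-46240690, plus strand.
Apoa4: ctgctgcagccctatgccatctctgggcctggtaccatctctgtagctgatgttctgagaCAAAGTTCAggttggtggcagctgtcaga

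CAAAGNNCA, searched on both strands of windows from 250 bases before to 50 bases after the start, was found in 6 of the 33 members with a RefSeq promoter (18.2%), against 7.27% of 27025 genes. The FOXA-type motif TGTTTGC was found in 12 (36.4%, against 5.76%), of which the Serpina1 paralogs account for 5. These are matches of letters, not binding sites.

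Apob, the structural protein of very low density lipoprotein, had 524, 303 and 359 CPM in HFD1 to HFD3 and 27.9, 123 and 103 CPM in ND1 to ND3. Apoa2, a second protein of high density lipoprotein, had 310 ± 130 and 62.6 ± 40.1 CPM under HFD and ND (SD, n = 3). Apoh (beta-2-glycoprotein I) had 139, 83.4 and 77.4 CPM in HFD1 to HFD3 and 8.48, 31.5 and 30.1 CPM in ND1 to ND3. All 3 stood more than 4-fold higher without passing in edgeR (adjusted p = 0.117 for Apob, 0.147 for Apoa2 and 0.117 for Apoh). Apoc4, whose gene model overlaps Apoc2 so that reads may be shared, was 3.35-fold higher at a low level, and the 2 remaining members did not separate the diets. Apom, a carrier of sphingosine 1-phosphate, was at 4.61 ± 1.92 CPM under HFD and 2.83 ± 1.84 CPM under ND. Apoc1 was at 546 ± 86.5 CPM under HFD (SD, n = 3), against 435, 721 and 423 CPM in ND1 to ND3. ND1, the library lowest in Alb, was not the lowest in Apoc1.

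All 9 genes of coagulation and fibrinolysis had separate diets and log2 fold changes between 1.23 and 1.97. None passed in edgeR, and DESeq2 called F2, Fgb, Kng1 and Plg. The 3 chains of fibrinogen, the precursor of the clot, had nearly equal fold changes. Fga, Fgb and Fgg stood 2.35-fold, 2.53-fold and 2.54-fold higher under HFD (edgeR adjusted p = 0.266, 0.247 and 0.273). F2 (prothrombin) was 3.92-fold higher, Vtn (vitronectin, an adhesion protein) 3.42-fold, Plg (plasminogen) 3.23-fold, Serpinc1 (antithrombin) 3.15-fold, Kng1 (kininogen) 3.01-fold and Serpinf2 (the plasmin inhibitor alpha-2-antiplasmin) 2.54-fold.

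Of the 12 protease inhibitors and fetuins, 11 had separate diets in the direction of the high fat diet. None passed in edgeR, and DESeq2 called Ahsg, Itih2, Itih4, Serpina1c and Serpina1d. Itih4, a heavy chain of the inter-alpha-trypsin inhibitor family and an acute-phase protein in several species, was 5.09-fold higher (adjusted p = 0.106 in edgeR). Itih1, Itih2 and Itih3 were 2.56-fold, 2.95-fold and 2.56-fold higher. Ahsg (fetuin A, an inhibitor of mineral deposition) and its neighbour Fetub (fetuin B) were 3.13-fold and 2.86-fold higher, and Serpina3k (a kallikrein-binding serpin) 2.80-fold. The 12th gene was Serpina1e, described below.

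Mup3 and Mup20, major urinary proteins that carry pheromones, and C3 were called neither in edgeR nor in DESeq2. Mup20, also called darcin, had 154, 86.9 and 95.3 CPM in HFD1 to HFD3 and 29.5, 149 and 135 CPM in ND1 to ND3. C3 had 606, 528 and 564 CPM in HFD1 to HFD3 and 498, 262 and 500 CPM in ND1 to ND3, so that it separated the diets by a narrow margin. Mup3 was 2.27-fold higher under HFD, with overlap. The edgeR p-values of the 3 were far from the threshold (adjusted p between 0.385 and 0.944).

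Since the enzymes too were more abundant in the HFD libraries, each member was also set against the 39 enzymes of the same library. On this scale, in reads per 1000 enzyme reads, a median member differed 1.89-fold between the highest and the lowest library, and 23 members differed less than 2-fold. Because the enzymes took a larger share of HFD libraries, most genes are lower under HFD on this scale: the median log2 fold change was -1.73 over all genes and 0.34 over the members, of which 34 were positive (3.83% of all genes). The edgeR test on this scale called 3 members, Serpina1e lower and Apoa4 and Serpina6 higher, where 7.90% of all genes were called lower and 0.153% higher. Without overlap, 21 members were higher and 4 lower, against 1.85% and 78.8% of all genes. The biological variation fitted over all genes was 56.5% on this scale, far above the spread of most members, so that a member without a call may still differ. The SE given on this scale, taken from the edgeR F statistic, reflects mainly that shared variation and not the spread of the gene itself.

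**Figure D3:**
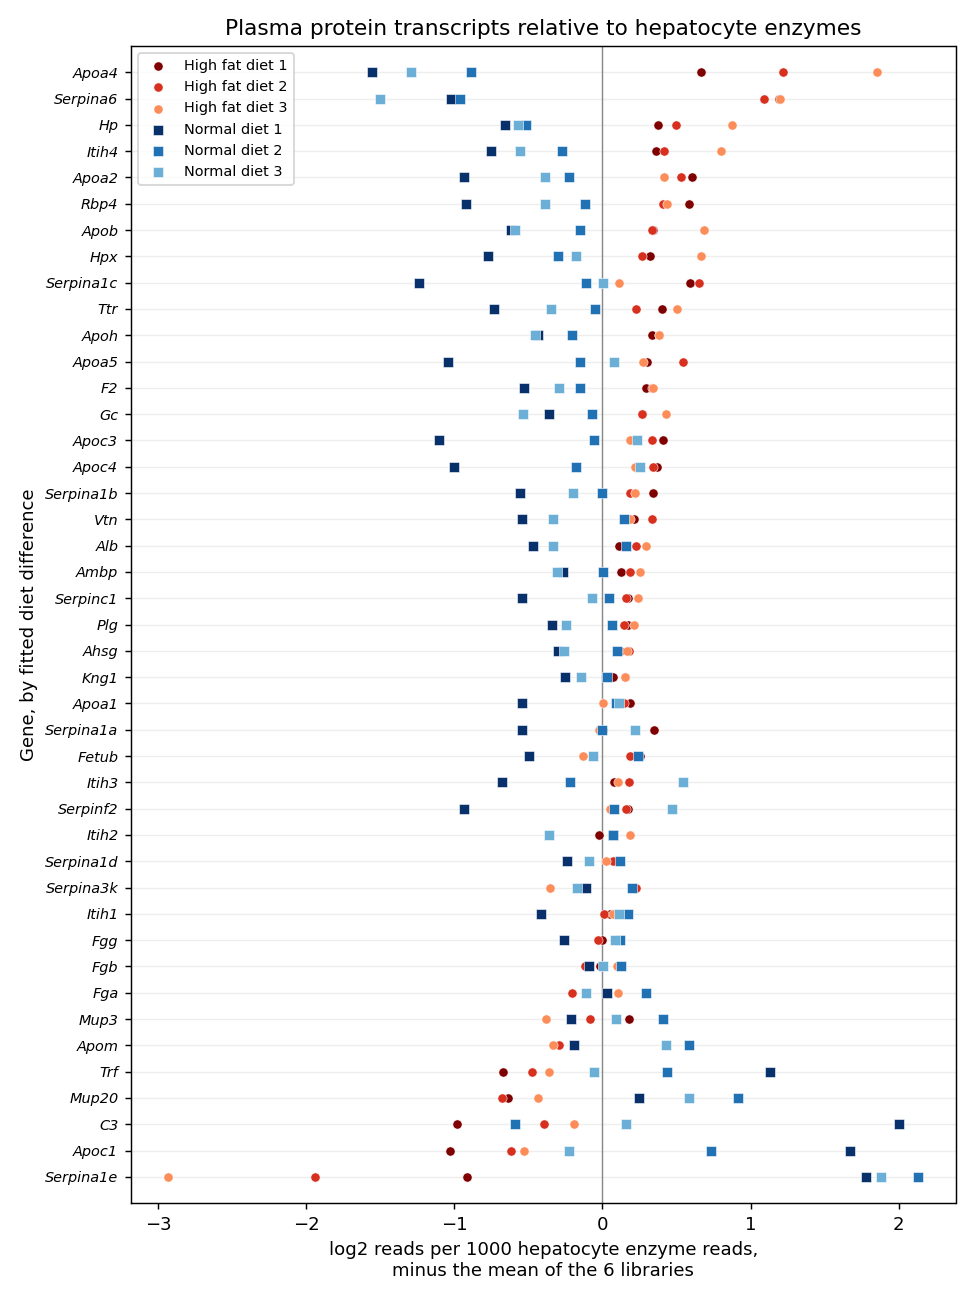
Reads of each member per 1000 hepatocyte enzyme reads, as log2 minus the mean of the 6 libraries, for high fat diet (circles) and normal diet (squares), ordered by the fitted diet difference. Most genes lie close to 0, while Apoa4 and Serpina6 at the top and Serpina1e at the bottom have diets far apart.

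Serpina1e stood apart from its paralogs. It had 17.8, 8.74 and 4.40 reads per 1000 enzyme reads in HFD1 to HFD3 and 115, 147 and 123 in ND1 to ND3. It fell 12.4-fold on this scale (log2 fold change -3.64 ± 0.85, SE; edgeR adjusted p = 0.00606). In CPM it had 64.2, 18.3 and 8.59 in HFD1 to HFD3 against 43.1, 175 and 167 in ND1 to ND3, with overlap and no call (log2 fold change -2.08 ± 0.85, SE; edgeR adjusted p = 0.266). The call on the enzyme scale was kept without Khk and Ass1, where 261 of 14361 genes passed, and without ND1, where 1601 did. It was also kept without ND2, without ND3 and without both libraries numbered 1, where 9749, 11623 and 7221 genes passed. Calls were common in those fits. The call ended without HFD1, HFD2 or HFD3 (edgeR adjusted p = 0.240, 0.168 and 0.145). In those fits only 3, 2 and 3 of all genes passed, against 1156 with all libraries.

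The Serpina1 genes encode alpha-1-antitrypsin, the inhibitor of neutrophil elastase, which mice make from several near-identical genes side by side on chromosome 12. Serpina1e (103946931 to 103958975, mm10, minus strand) took 7.64%, 4.34% and 2.26% of the reads of Serpina1a to Serpina1e in HFD1 to HFD3, with 95% Wilson intervals of 7.26 to 8.04, 3.90 to 4.82 and 1.97 to 2.59. In ND1 to ND3 it took 47.7%, 45.1% and 42.4%, with intervals of 45.4 to 50.1, 43.9 to 46.2 and 41.3 to 43.5. The diets differed by far more than the spread within either, and ND1, the library with the lowest enzyme share, lay close to the other ND libraries. The exact permutation test gave p = 0.10, the smallest possible. Serpina1b was the main family member under HFD, at 49.4 ± 2.34% of family reads, against 25.7 ± 1.09% under ND.

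**Figure D4:**
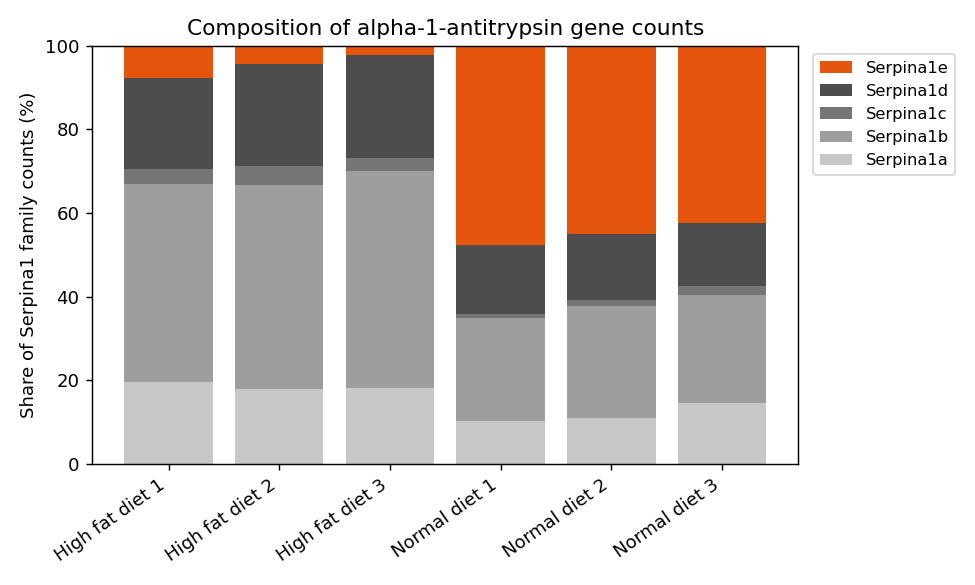
Share of the Serpina1a to Serpina1e counts (%) held by each gene, 1 stacked bar per library. Serpina1e (orange) holds 2.26% to 7.64% in the HFD libraries and 42.4% to 47.7% in the ND libraries.

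In edgeR none of the other 4 paralogs was called on the enzyme scale, and none was lower in all HFD libraries. Per 1000 enzyme reads, Serpina1a to Serpina1d together had 215, 193 and 190 reads in HFD1 to HFD3 and 126, 179 and 167 in ND1 to ND3. In CPM, Serpina1a, Serpina1b, Serpina1c and Serpina1d stood 2.85-fold, 3.52-fold, 4.13-fold and 2.81-fold higher under HFD. The sources used here do not say how the authors counted reads that map to several genes. In the GENCODE transcripts, 56.1% of the 40-base words of Serpina1e occur in no other member of the family (38.7%, 63.4%, 22.1% and 42.7% for Serpina1a to Serpina1d). The deposited gene model of Serpina1b also spans Serpina1d.

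The stretches upstream of the 5 RefSeq starts are shown because Serpina1e was the only one of the family that edgeR called on the enzyme scale. Each holds a match to the FOXA-type motif TGTTTGC, in capitals. All are on the minus strand of chromosome 12, from RefSeq in GRCm38.p6, and contain no GENCODE exon of these genes. Those of Serpina1b and Serpina1e lie inside the longer gene models of the deposited table, and that of Serpina1d lies inside the model of Serpina1b. The positions are chr12:103863627-103863740 for Serpina1a, chr12:103738202-103738315 for Serpina1b, chr12:103904964-103905077 for Serpina1c, chr12:103773636-103773749 for Serpina1d and chr12:103956962-103957075 for Serpina1e.
Serpina1a: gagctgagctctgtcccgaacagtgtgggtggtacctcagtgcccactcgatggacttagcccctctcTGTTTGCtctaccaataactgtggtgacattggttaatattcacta
Serpina1b: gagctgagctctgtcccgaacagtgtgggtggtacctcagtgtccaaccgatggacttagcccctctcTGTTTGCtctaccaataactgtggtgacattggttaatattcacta
Serpina1c: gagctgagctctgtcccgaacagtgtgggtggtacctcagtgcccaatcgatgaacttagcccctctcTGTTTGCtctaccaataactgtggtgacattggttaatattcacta
Serpina1d: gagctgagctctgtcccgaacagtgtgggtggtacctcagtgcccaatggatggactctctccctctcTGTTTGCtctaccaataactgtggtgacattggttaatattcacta
Serpina1e: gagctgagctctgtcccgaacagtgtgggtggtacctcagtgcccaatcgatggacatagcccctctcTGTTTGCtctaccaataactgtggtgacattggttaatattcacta
Over these 114 bases Serpina1e differs from Serpina1a and Serpina1c at 2 positions each, from Serpina1b at 3 and from Serpina1d at 6. The annotated start lies 110 bases after the first base of TGTTTGC in Serpina1e and between 48 and 59 bases after it in the others.

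Mup20 also lay lower under HFD on the enzyme scale. It had 42.6, 41.4 and 48.8 reads per 1000 enzyme reads in HFD1 to HFD3 and 78.6, 125 and 99.3 in ND1 to ND3. The diets did not overlap, at 2.28-fold lower under HFD, where 78.8% of all genes were lower without overlap. Its log2 fold change of -1.19 was not below the -1.73 of the median gene. The difference did not pass (edgeR adjusted p = 0.144). It passed without ND1 (adjusted p = 0.0340 in edgeR, where 11.1% of genes were called). Mup7, a related gene outside the 43 that was chosen after its values were seen, fell 5.20-fold on this scale (edgeR adjusted p = 0.0431). The other 4 Mup genes tested did not pass, at 1.26-fold lower for Mup21, 1.34-fold for Mup17, 2.20-fold for Mup15 and 2.58-fold for Mup11 (edgeR adjusted p = 0.671, 0.656, 0.218 and 0.115). Mup3 overlapped, at 105 ± 20.2 under HFD and 120 ± 25.8 under ND (SD, n = 3).

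Apoa4 and Serpina6 rose on the enzyme scale too. Apoa4 had 7.54, 11.1 and 17.2 reads per 1000 enzyme reads in HFD1 to HFD3 and 1.62, 2.57 and 1.95 in ND1 to ND3 (log2 fold change 2.53 ± 0.79, SE; edgeR adjusted p = 0.0375). Serpina6 had 6.88, 6.42 and 6.91 in HFD1 to HFD3 and 1.48, 1.55 and 1.06 in ND1 to ND3 (log2 fold change 2.31 ± 0.80, SE; edgeR adjusted p = 0.0489). The Serpina6 values were nearly constant within HFD, while its CPM had differed 1.85-fold there. Both calls ended without Khk and Ass1 (edgeR adjusted p = 0.0556 for both), where 261 of all genes passed. These enzymes took 36.1% of the enzyme reads in ND1 and between 8.29% and 15.1% in the other libraries. Both calls also ended without HFD1, HFD2 or HFD3, where only 3, 2 and 3 of all genes passed.

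Several other members lay higher on the enzyme scale without passing. Hp had 85.9, 93.3 and 121 reads per 1000 enzyme reads in HFD1 to HFD3 and 42.1, 46.3 and 44.7 in ND1 to ND3 (2.26-fold; edgeR adjusted p = 0.148). Itih4 was 2.07-fold, Apoa2 2.01-fold, Rbp4 1.89-fold, Apob 1.87-fold and Hpx 1.77-fold higher, each without overlap. The 3 fibrinogen genes overlapped between the diets on this scale. Fgb had 65.2, 60.8 and 70.6 reads per 1000 enzyme reads in HFD1 to HFD3 and 61.8, 72.0 and 66.0 in ND1 to ND3. Alb had 1494 ± 95.3 under HFD and 1132 ± 271 under ND (SD, n = 3), with overlap. Without both libraries numbered 1, 12 members passed as higher, where 1.34% of genes did, Hp, Itih4, Apoa2, Rbp4, Apob and Hpx among them. Apoc1, Mup20 and Serpina1e passed as lower there, where 48.9% of genes did.

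Apoc1 and Trf were lower in every HFD library on this scale, as were 78.8% of all genes, and C3 overlapped, none of them called. The log2 fold changes of Apoc1, Trf and C3 were -1.64, -1.07 and -1.44, none below the -1.73 of the median gene. Apoc1 had 179, 238 and 253 reads per 1000 enzyme reads in HFD1 to HFD3 and 1161, 606 and 312 in ND1 to ND3. C3 had 168, 251 and 289 in HFD1 to HFD3 and 1327, 220 and 369 in ND1 to ND3. Both were highest in ND1, the library with the lowest enzyme share. Apoc1 made up 23.3% and C3 26.7% of all plasma protein reads in that library. Without these 2 genes the share of counts was 0.959 ± 0.325% under HFD and 0.303 ± 0.185% under ND (SD, n = 3).

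Among 70 other plasma protein genes, 4 rose under HFD and none fell in edgeR, where 0.446% of all genes were called higher and 0.188% lower. Log2 fold changes were positive for 64 of them (median 1.62), against 50.0% of all genes. F5 (coagulation factor V) had 112, 82.3 and 90.3 CPM in HFD1 to HFD3 and 29.4, 23.8 and 27.6 CPM in ND1 to ND3 (edgeR adjusted p = 0.0231). Saa1, an acute-phase apolipoprotein, was at 3.82 ± 1.05 and 0.202 ± 0.130 CPM under HFD and ND (SD, n = 3; edgeR adjusted p = 0.0351). Its values of 0.101, 0.158 and 0.348 CPM in ND1 to ND3 rest on very few reads. Apoc2, the activator of lipoprotein lipase, and Bche (butyrylcholinesterase) rose 2.88-fold and 4.52-fold (edgeR adjusted p = 0.0420 and 0.0439), and F7 (coagulation factor VII) was 3.95-fold higher without passing (edgeR adjusted p = 0.0613). Relative to the enzymes edgeR called Saa1 higher and Masp1, a protease of the lectin pathway of complement, lower. On that scale 0.153% of all genes were called higher and 7.90% lower. The log2 fold change of Masp1 was -2.49 there, and that of the median gene -1.73. Per length, the most abundant of the 70 over the 6 libraries were Apoe, which macrophages also express, Pltp (phospholipid transfer protein) and C6 (complement component C6). Apoe was at 13195 ± 1407 FPKM under HFD and 11623 ± 2956 FPKM under ND, Pltp at 403 ± 26.8 and 295 ± 106 FPKM, and C6 at 234 ± 27.1 and 271 ± 75.0 FPKM in the same order (SD, n = 3).

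Of 17 hepatocyte transcription factor genes none passed in edgeR, where 0.634% of all genes did. Log2 fold changes were positive for 15 of them (median 1.35), against 50.0% of all genes. Hnf4a had 55.8, 34.0 and 27.9 CPM in HFD1 to HFD3 and 4.54, 20.1 and 20.5 CPM in ND1 to ND3, with separate diets. Cebpb and Cebpa, the most abundant per length and also expressed in myeloid cells, overlapped between the diets. In CPM edgeR called no sinusoidal endothelial or stellate cell marker. Of 9 stellate cell markers, 5 were lower in every HFD library, against 10.8% of all genes. Relative to the enzymes edgeR called 4 of 10 sinusoidal endothelial and 7 of 9 stellate cell markers lower. On that scale 7.90% of all genes were called lower, and the median log2 fold change over all genes was -1.73. In CPM, sums over 10 sinusoidal endothelial markers lay between 1223 and 1724 CPM under HFD and between 1454 and 4087 CPM under ND, and those over 9 stellate cell markers between 192 and 233 and between 197 and 446 CPM under HFD and ND. Neutrophil markers did stand higher, at 295 to 341 CPM under HFD and 205 to 219 CPM under ND over 9 genes. Of these, edgeR called 3 higher, against 0.446% of all genes. In CPM 8 were higher in every HFD library, against 14.5% of all genes. Their part in the values of Hp was not tested.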

How the data were processed

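RNA of liver macrophages from 6 mice was compared between diets, with groups from the treatment label. The authors deposited 1 table with raw read counts, a normalised signal (counts divided by 1 size factor per library), FPKM values, and their own log2 fold change with p-value and adjusted p-value. The submitters' processing notes name mm10, the aligners STAR and HISAT2, the counter featureCounts, and StringTie, STAR-Fusion, DESeq and edgeR, without roles, versions or settings. The 43 symbols equalled the GENCODE M21 symbols of their identifiers, and 6 members overlap another gene. Tests used the counts, with edgeR 4.0.16 in R 4.3.3 (TMM, default low-count filter, robust quasi-likelihood test, Benjamini-Hochberg over 14361 genes, threshold 0.05). CPM are relative to TMM-scaled library sizes. All 43 members passed the filter. The fit relative to 39 enzymes used their summed counts as library size. FPKM served only for levels between genes. DESeq2 1.42.0, limma 3.58.1 and other settings were alternatives. Exact permutation tests used scipy 1.17.1. Libraries of one diet differed beyond sampling noise, with chi-square at least 13.7 times its degrees of freedom, so none was a repeat deposit. Each library was taken as 1 mouse, from the design text. All members were named, with the 5 other plasma protein genes of smallest p and the 3 most abundant by mean FPKM. Members, lists and motifs were chosen with earlier results of these data known. The edgeR fits were tested on simulated data. These held the same biological variation for every gene, below the 20.9% fitted in CPM and the 56.5% fitted on the enzyme scale. How the fits behave at the fitted variation was not tested.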

Additional observations from a re-analysis of the deposited data

How the results depend on the processing

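Counts of calls depended on libraries more than on scaling. All genes called numbered 91 in edgeR, between 73 and 125 under the scaling, filter and limma voom alternatives, and 1206 in DESeq2. They numbered 0 with the hepatocyte enzyme score as a covariate and 0 without both libraries numbered 1 (chosen after seeing the data), and between 0 and 1385 with 1 library left out. The score was 5.88, 5.13 and 5.02 in HFD1 to HFD3 and 2.30, 4.27 and 4.39 in ND1 to ND3. Every HFD library thus scored above every ND library, and the covariate fit cannot tell diet and score apart. Members called numbered 2 of 43. They numbered 1 with a filter of 5 CPM in 3 libraries, 1 in limma voom, 20 in DESeq2 and 0 with the covariate. They numbered 0 without both libraries numbered 1 and 0 to 2 with 1 library left out. The members' median log2 fold change was 0.094 with the covariate, against 1.65, and the difference in their share of counts was 0.372 percentage points without both libraries numbered 1, against 0.674. Relative to the enzymes, 3 members were called. They numbered 1 in limma voom, 1 with a median ratio over the enzymes and 1 without Khk and Ass1, Serpina1e each time. The median-ratio setting and the setting without Khk and Ass1 were chosen after seeing the data. Members called numbered 15 without both libraries numbered 1 and 0 to 5 with 1 library left out. All genes called there numbered 7221 and between 2 and 11623, against 1156 in the main fit. Plasma protein reads per enzyme read differed by -0.12 (HFD minus ND), but by 0.75 without C3 and Apoc1 and 0.30 without both libraries numbered 1, and by -0.50 to 0.21 (without ND1) with 1 library left out, settings all chosen after seeing the data. The cause was not tested.

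With the covariate, log2 fold changes turned negative for Trf (-0.22), Apoa1 (-0.24), Apoc1 (-0.32), Apoc3 (-0.25), Apoc4 (-0.13), Apom (-1.04), Fga (-0.11), Fgb (-0.084), Fgg (-0.17), Fetub (-0.24), Serpina1a (-0.34), Serpina1d (-0.021), Serpina3k (-0.063), Serpinf2 (-0.61), Itih1 (-0.27), Itih3 (-0.40), Mup3 (-0.60) and Mup20 (-1.45), none with a call. Without both libraries numbered 1 they were negative for Apoc1 (-0.22), Apom (-0.16) and Mup20 (-0.65). With 1 library left out, Apoc1 ranged between -0.10 (without HFD1) and 0.34 (without ND2), with -0.084 without ND1 and -0.083 without ND3. Mup20 ranged between -0.35 (without ND1) and 0.44 (without ND2), with -0.21 without HFD1. With a median ratio over the enzymes, Ahsg (-0.064), Plg (-0.014) and Kng1 (-0.12) turned negative on the enzyme scale. No paired analysis was possible because the labels number no replicates. Trf, Apom and Apoc4, and the called Serpina6 and Apoa4 under ND, rest on few reads (between 8 and 79 in each ND library).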
